A study of Mus musculus with 29 samples.

Results

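The 8 genes described here code for proteins that epithelia secrete or use to guard their surface, and they were chosen as a group because their signals were low in neuroendocrine (NE) tumors of the mouse prostate. They are Ltf (lactoferrin), Lcn2 (lipocalin 2), Ctse (cathepsin E), Wfdc15b, Wfdc2 and Slpi (proteins of the whey acidic protein family, WAP), 9530003J23Rik (a lysozyme-like gene) and Pigr (the polymeric immunoglobulin receptor). They were found by the listed symbols, and all 8 of 8 were among the 10768 genes kept because a probe was detected on at least 1 array. They were thus selected on the difference between the NE tumors and the adenocarcinomas (T30) on these arrays, so their values in that contrast are given as a description with no test.

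Prostates came from TRAMP mice (C57BL/6-tgN (TRAMP)8247Ng), male mice that express the large T antigen of a polyoma virus under the androgen-driven probasin promoter in prostate epithelium, and from OPN-/-TRAMP mice (B6.tgN (TRAMP)8247Ng Spp1<tm1Blh>/J), which carry the same transgene and lack osteopontin. The groups were 4 prostates of 18 wks old TRAMP mice (T18), 4 of 30 wks old TRAMP mice with palpable adenocarcinoma (T30), 5 of 15 wks old and 13 of 18 wks old OPN-/-TRAMP mice with no palpable tumor (OPT15 and OPT18), and 3 of 18 wks old OPN-/-TRAMP mice with a palpable NE tumor (OPT-tm). The T18, OPT15 and OPT18 prostates are called tumor-free here, which means only that the study detected no lesion in them by ultrasound. Its histology found multifocal or anaplastic lesions in both genotypes from 18 wks of age. The labels also split the 22 tumor-free prostates into 5 called Ineuntes and 17 called Reliquia. These were taken, from their numbers, to be the classes that the study calls Early-NE and Early-ADC and drew from clustering these same arrays. The study held that its Early-NE prostates likely bore a developing NE tumor. The labels give more OPT18 prostates than the study's text, and the labels were followed. Every mouse carried the transgene and no prostate without it was analysed here, so none of the groups stands for normal prostate. OPT-tm and T30 differed in genotype and age together with tumor type, and these cannot be told apart in that contrast.

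Lactoferrin binds iron and kills bacteria in milk, tears and seminal fluid. Lipocalin 2 captures the siderophores with which bacteria take up iron, and lysozymes cut the bacterial cell wall. WAP proteins are small and rich in disulfide bonds, and several of them, such as Slpi, inhibit serine proteases of neutrophils. Pigr carries IgA across the epithelium into secretions, and cathepsin E is an aspartic protease of epithelial and immune cells. In glands these genes are mostly transcribed by the secretory epithelium, and Ltf and Lcn2 are also stored in the granules of neutrophils.

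Of the 8 genes 7, all but Ctse, were matched by symbol in a table of RefSeq promoter sequences (GRCm38.p6). The stretches that follow are the 150 bases before the annotated start, 5′ to 3′ on the strand of the gene. They are shown for 4 genes that were all low in the NE tumors and for Pigr, which, like Wfdc2, was detected on every array. Capitals mark the letters of the short motifs searched on both strands, of types bound by the factor families C/EBP (TTNNGNAA), ETS (AGGAAG) and steroid receptors (AGAACA).
Ltf, chr9:111019142-111019291, plus strand: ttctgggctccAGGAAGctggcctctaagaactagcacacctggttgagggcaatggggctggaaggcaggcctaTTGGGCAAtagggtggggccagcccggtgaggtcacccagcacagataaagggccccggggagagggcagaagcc
Lcn2, chr2:32387740-32387889, minus strand: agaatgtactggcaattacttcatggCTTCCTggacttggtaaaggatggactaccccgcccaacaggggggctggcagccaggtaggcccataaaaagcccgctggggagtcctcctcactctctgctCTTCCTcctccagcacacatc
Wfdc15b, chr2:164221664-164221813, minus strand: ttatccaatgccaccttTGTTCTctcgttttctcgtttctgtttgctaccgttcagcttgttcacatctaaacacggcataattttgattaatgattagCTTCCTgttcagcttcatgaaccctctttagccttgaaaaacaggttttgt
9530003J23Rik, chr10:117238682-117238831, minus strand: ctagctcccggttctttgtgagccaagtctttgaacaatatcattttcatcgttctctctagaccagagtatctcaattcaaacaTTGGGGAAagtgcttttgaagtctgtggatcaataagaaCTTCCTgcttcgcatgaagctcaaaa
Pigr, chr1:130826534-130826683, plus strand: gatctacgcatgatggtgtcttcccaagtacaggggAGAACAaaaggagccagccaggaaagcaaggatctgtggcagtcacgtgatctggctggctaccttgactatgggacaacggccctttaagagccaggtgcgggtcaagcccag

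Within the 250 bases before the start, the ETS-type letters stood in 5 of 7 windows, those of Ltf, Lcn2, Wfdc15b, 9530003J23Rik and Wfdc2, against 29.5% of all 32851 windows in the table. The C/EBP-type letters stood in 6 of 7 windows, all but that of Pigr, against 36.8% of all windows. The window of Wfdc2, which is not shown, thus held the letters of both types. The letters of the steroid-receptor type stood in 2 of 7, Wfdc15b and Pigr, against 16.1%. The kappa B motif and TATAAA were in 0 of 7 windows, against 7.25% and 12.4% of all. No motif overlapped another in the 5 stretches shown. A match describes letters and is not evidence of binding.

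Each gene was read by 1 probe, the one detected on most arrays, and values are log2 signals after quantile normalization of all 29 arrays. A probe counted as detected where its detection p-value was under 0.01, and the lowest signal of a detected probe lay between 8.40 and 9.15 on the 29 arrays. Between 38.7% and 51.8% of probes were detected per array, with higher shares on chips 1 and 2 than on chips 3 and 4. Chips 1, 2 and 3 held 1 OPT-tm and 1 T30 array each, and chip 4 held the other T30 array. No named probe for Spp1 was used here, so the deletion was not checked on the arrays. The NE label of OPT-tm went with its markers, since 8 of 8 neuroendocrine genes tested were higher there than in T30. By the same rule (limma adjusted p under 0.05 and at least 2-fold), 11.5% of all genes were higher. The summed linear signal of the 8 neuroendocrine genes was 117557 to 131178 in OPT-tm and 1959 to 2056 in T30.

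In the NE tumors 4 of the 8 genes were below detection and 2 more were detected on only some arrays. Ltf, Ctse, 9530003J23Rik and Slpi were detected on none of the 3 arrays, Wfdc15b was detected on 1 and Lcn2 on 2. Wfdc2 and Pigr were detected on all 3 arrays, and their signals overlapped those of T30. The genes were grouped as lost in NE tumors. Against T30 6 of them were lower with no overlap, of which Lcn2 and Wfdc15b were still detected on some arrays, and Wfdc2 and Pigr were not apart from T30. In bulk prostate RNA, fewer cells that make a transcript and less transcript per cell cannot be told apart.

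**Figure D1:**
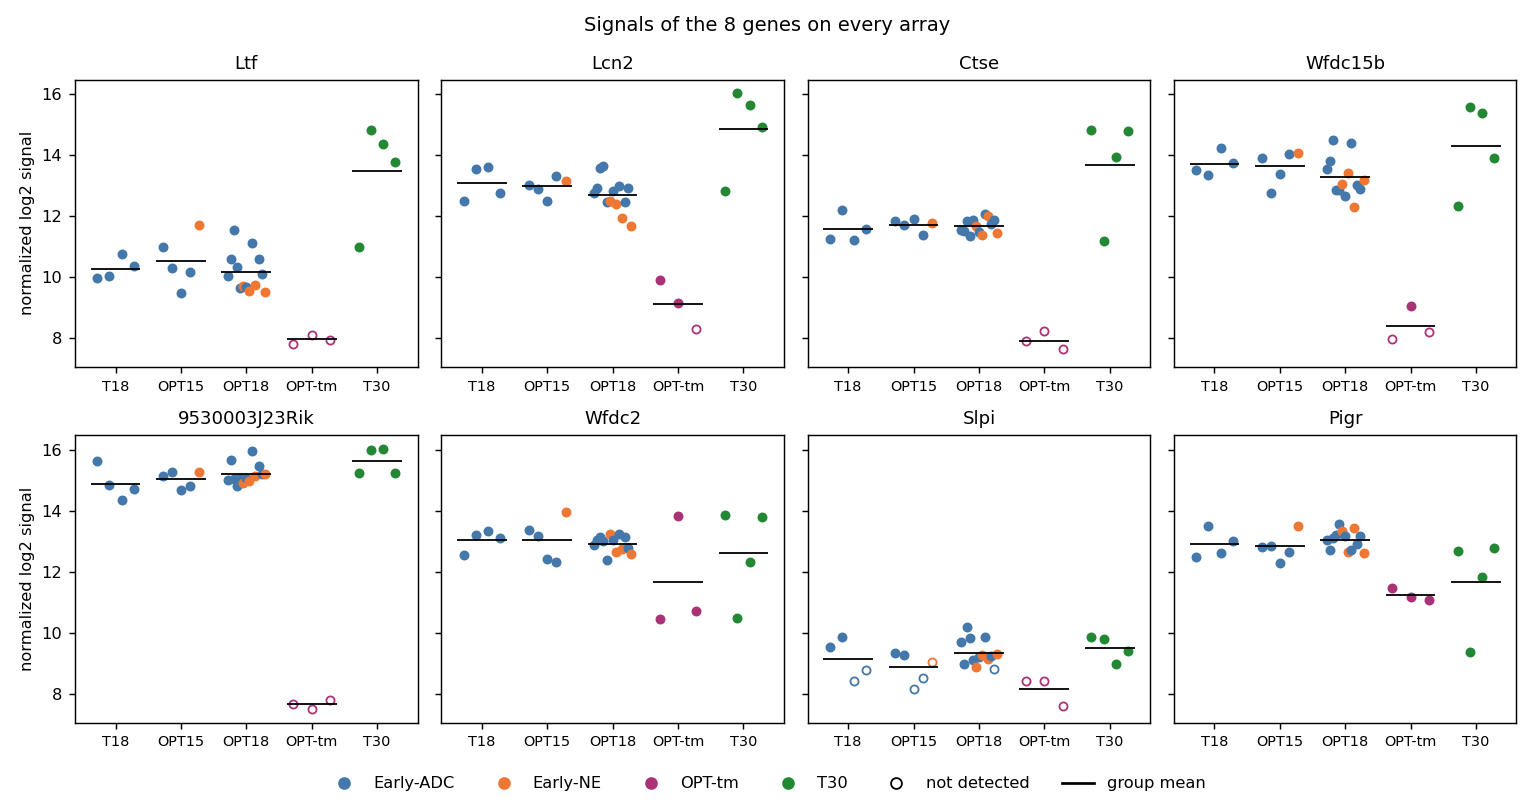
Normalized log2 signals of the 8 genes on all 29 arrays (vertical axis) by group (horizontal axis). Points are arrays, open points were not detected, blue and orange mark the Early-ADC and Early-NE classes, and bars are group means. Ltf, Ctse, Wfdc15b, 9530003J23Rik and Lcn2 are lower in all 3 OPT-tm arrays than on every other array, while Wfdc2 reaches 13.85 in 1 of them.

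The lysozyme-like gene 9530003J23Rik had the widest gap. Its probe (ILMN_1216092) gave 15.24, 16.01, 16.04 and 15.26 in the 4 T30 replicates and 7.67, 7.48 and 7.80 in the 3 OPT-tm replicates. It was bright in every adenocarcinoma and was not detected in any NE tumor. The difference OPT-tm minus T30 was -7.98 on the log2 scale, which is at least 126-fold when the NE tumors are set at the detection floor (each array at its lowest detected value, or at its own signal where that was brighter). In the tumor-free groups it gave 15.65, 14.84, 14.35 and 14.73 in T18, 15.14, 15.27, 14.68, 14.82 and 15.28 in OPT15, and 14.83 to 15.95 (median 15.09) in OPT18. The whole spread over the 26 arrays outside OPT-tm was thus far smaller than the gap to the NE tumors. Against OPT18, mice of the same genotype and age, the difference was -7.55, at least 93.6-fold.

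Ltf, the iron-binding lactoferrin, was not detected in the NE tumors and lay above every other group in 3 of 4 adenocarcinomas. Its probe (ILMN_2754364) gave 7.82, 8.09 and 7.95 in OPT-tm and 10.99, 14.84, 14.38 and 13.77 in T30. T30 replicate 1 stood with the tumor-free prostates and the other 3 far above them. In T18 Ltf gave 9.96, 10.03, 10.77 and 10.35, in OPT15 10.98, 10.30, 9.48, 10.16 and 11.71, and in OPT18 9.52 to 11.55 (median 10.02). No OPT-tm array overlapped any of these groups. OPT-tm minus T30 was -5.54 (at least 28.6-fold) and OPT-tm minus OPT18 was -2.21 (at least 2.85-fold). A second Ltf probe was detected on 0 of 29 arrays and gave -0.33 for OPT-tm minus T30, so all Ltf values rest on 1 probe.

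Lcn2, which binds bacterial siderophores, kept a weak signal in the NE tumors. Its probe (ILMN_2712075) gave 9.91, 9.16 and 8.30 in OPT-tm, of which the first 2 were detected, and 12.82, 16.05, 15.66 and 14.92 in T30. As with Ltf, T30 replicate 1 was the lowest of the adenocarcinomas and lay within the tumor-free range. T18 gave 12.51, 13.54, 13.60 and 12.76, OPT15 gave 13.04, 12.91, 12.51, 13.32 and 13.15, and OPT18 ran from 11.69 to 13.66 (median 12.75). The group means were 9.12 ± 0.80 (SD, n = 3) in OPT-tm and 14.86 ± 1.44 (n = 4) in T30, a difference of -5.74 (53.6-fold), with 1 of the 3 OPT-tm arrays at background. Against OPT18 the difference was -3.58 (12-fold), with no overlap.

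Wfdc15b, a gene of the WAP family, followed the order of Ltf and Lcn2 in the adenocarcinomas. Its probe (ILMN_3141801) gave 12.34, 15.57, 15.41 and 13.92 in T30 and 7.96, 9.04 and 8.20 in OPT-tm, where only replicate 2 was detected. T18 gave 13.51, 13.37, 14.25 and 13.75, OPT15 gave 13.91, 12.76, 13.40, 14.05 and 14.06, and OPT18 ran from 12.31 to 14.49 (median 13.07). All 26 other arrays lay above the 3 NE tumors. OPT-tm minus T30 was -5.91 (60.2-fold) and OPT-tm minus OPT18 was -4.87 (29.3-fold), with an OPT-tm mean that includes 2 arrays at background. A second Wfdc15b probe, detected on 26 arrays, gave -4.49 and -3.29 for the same differences.

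Ctse, the aspartic protease cathepsin E, was not detected in the NE tumors either, but its order among the adenocarcinomas was another. Its probe (ILMN_2960325) gave 7.90, 8.23 and 7.62 in OPT-tm and 14.84, 11.20, 13.95 and 14.79 in T30. Here T30 replicate 2 was the low one and the other 3 lay above every tumor-free prostate. T18 gave 11.27, 12.19, 11.21 and 11.59, OPT15 gave 11.84, 11.71, 11.91, 11.37 and 11.79, and OPT18 ran from 11.36 to 12.06 (median 11.67), the narrowest range of the 8 genes in that group. OPT-tm minus T30 was -5.78 (at least 32.9-fold) and OPT-tm minus OPT18 was -3.76 (at least 8.10-fold).

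Slpi, the secretory leukocyte protease inhibitor, was detected on 20 of 29 arrays, the fewest of the 8 genes. Its probe (ILMN_1256817) gave 8.42, 8.40 and 7.59 in OPT-tm, none detected, and 9.85, 9.80, 8.98 and 9.39 in T30, all detected. In T18 it gave 9.52, 9.87, 8.40 and 8.79 and was detected on the first 2, and in OPT15 it gave 9.33, 9.25, 8.15, 8.50 and 9.05 with the first 2 detected. The undetected arrays of T18 and OPT15 were all on chips 3 and 4, where fewer probes were detected. OPT-tm minus T30 was -1.37 (at least 1.80-fold) and OPT-tm minus OPT18 (8.80 to 10.18, median 9.25) was -1.20 (at least 1.61-fold). OPT-tm replicates 1 and 2 lay on chips 1 and 2, where more probes were detected, and replicate 3, the lowest, on chip 3. The part of the chip was not tested.

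Wfdc2, another WAP gene that is widely transcribed in glandular epithelia, did not separate the tumors. Its probe (ILMN_1236758) gave 10.44, 13.85 and 10.71 in OPT-tm and 13.86, 10.49, 12.33 and 13.79 in T30. One NE tumor was as high as the highest adenocarcinomas and above all 13 OPT18 prostates (12.40 to 13.26, median 13.03), and 1 adenocarcinoma was as low as the other 2 NE tumors. T18 gave 12.54, 13.21, 13.34 and 13.10, and OPT15 gave 13.37, 13.16, 12.40, 12.33 and 13.97. OPT-tm minus T30 was -0.95, within the SDs of 1.90 in OPT-tm and 1.59 in T30, and it became -2.05 without OPT-tm replicate 2. Against OPT18 the difference was -1.26, and -2.35 without that replicate. A second Wfdc2 probe was detected in OPT-tm only in replicate 2, at 9.98 against 8.06 and 8.13.

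Pigr, the receptor that moves IgA through epithelial cells, was lower in the NE tumors than in tumor-free prostates but not apart from the adenocarcinomas. Its probe (ILMN_1225605) gave 11.48, 11.17 and 11.09 in OPT-tm and 12.67, 9.38, 11.82 and 12.78 in T30. The NE tumors lay between T30 replicate 2 and the other adenocarcinomas. T18 gave 12.48, 13.50, 12.61 and 13.02, OPT15 gave 12.83, 12.86, 12.30, 12.67 and 13.51, and OPT18 ran from 12.63 to 13.56 (median 13.10), so that every NE tumor was under every tumor-free prostate. OPT-tm minus T30 was -0.42, or -1.18 without T30 replicate 2, and OPT-tm minus OPT18 was -1.81 (3.51-fold).

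As a group, the 8 genes had a median difference OPT-tm minus T30 of -5.64, beside -0.03 over all 10768 genes. With neqc background correction it was -7.03, and with the undetected second Ltf probe -3.55. Of the 8, 6 did not overlap between the tumor groups and were lower in OPT-tm, which 24.5% of all genes did, but this contrast chose the genes and nothing is read from the count. OPT-tm minus OPT18 had a median of -2.90 over the 8 genes (-4.17 with neqc) and -0.01 over all genes. Here 7 of 8 did not overlap and were lower, all but Wfdc2, where 23.1% of all genes did so. This comparison used the same NE tumor arrays, so it is a description too. Within chips 1, 2 and 3, each with 1 array of either tumor type, OPT-tm minus T30 was below 0 on all 3 chips for 6 genes. It turned on chip 2 for Wfdc2 (-3.43, 3.36 and -1.62) and for Pigr (-1.19, 1.79 and -0.73).

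**Figure D2:**
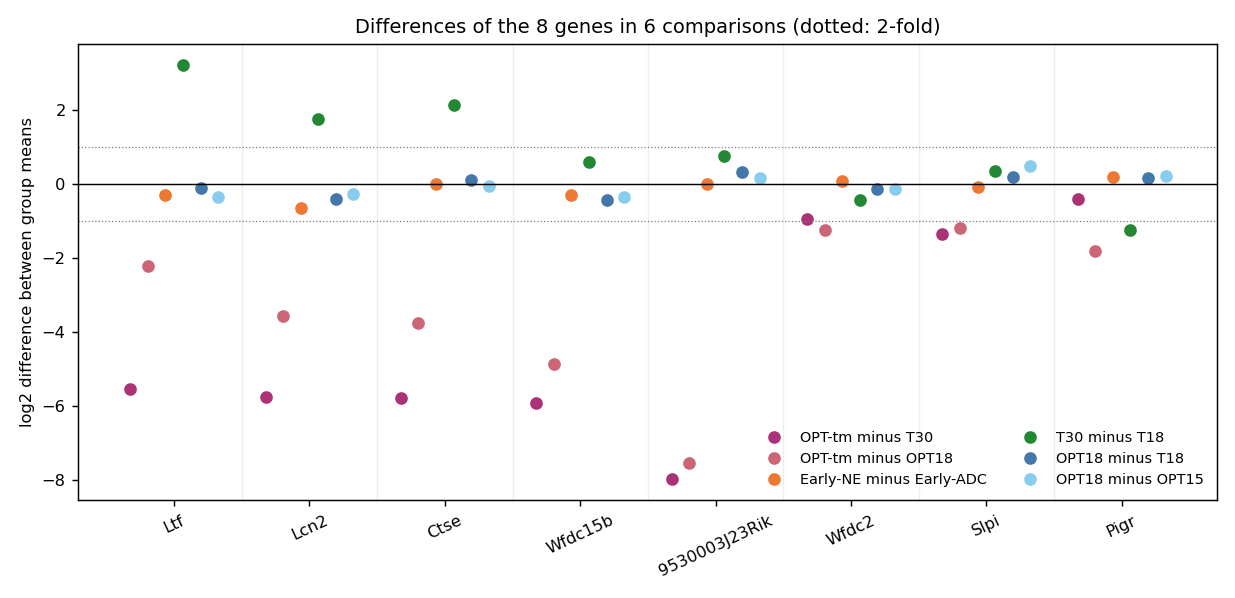
Differences between group means of the 8 genes on the log2 scale (vertical axis) in 6 comparisons (colours), with dotted lines at a 2-fold change and no error bars drawn. The OPT-tm differences reach -7.98 for 9530003J23Rik, and the differences among tumor-free prostates stay within 2-fold.

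The 4 adenocarcinomas were not alike for these genes. Ltf, Lcn2 and Wfdc15b were lowest in replicate 1 and highest in replicate 2, with ranges of 3.85, 3.24 and 3.23. Ctse, Wfdc2 and Pigr were lowest in replicate 2 and higher in replicates 1 and 4, with ranges of 3.64, 3.38 and 3.40. 9530003J23Rik was bright in all 4, within 0.80, and Slpi stayed within 0.87. Among the NE tumors the range was 3.41 for Wfdc2, 1.61 for Lcn2 and 1.09 for Wfdc15b, and the other 5 genes stayed within 0.83.

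Marker genes of other cells differed among the same 4 arrays, and their part in the order was not tested. The summed linear signal of 6 basal epithelium genes was 21064, 57519, 49053 and 31811 in T30 replicates 1 to 4, the same order as Ltf, Lcn2 and Wfdc15b. That of 10 seminal vesicle genes, most of them Svs genes, was 8050 in T30 replicate 1 and 480355, 550959 and 504143 in replicates 2, 3 and 4. Replicate 1 was thus low for the seminal vesicle genes too, and the other 3 replicates did not follow the order of Ltf, Lcn2 and Wfdc15b. The summed signal of 10 prostate luminal genes was lowest in T30 replicate 2 (137369, with 196255 to 232350 in the other 3), as was that of 6 urothelial genes (14695, with 26076 to 45536). Replicate 2 was the array with low Ctse, Wfdc2 and Pigr. Without T30 replicate 1, OPT-tm minus T30 was -6.38 for Ltf, -6.42 for Lcn2 and -6.57 for Wfdc15b. Without T30 replicate 2 it was -6.61 for Ctse and -1.66 for Wfdc2.

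**Figure D3:**
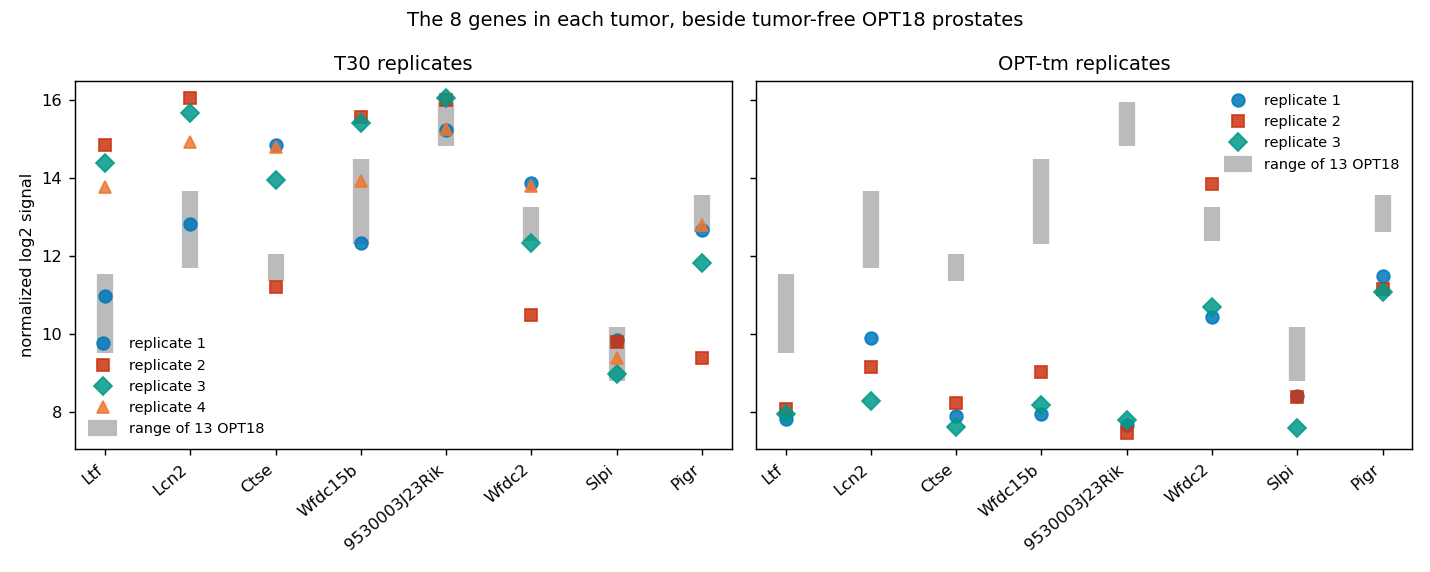
Normalized log2 signals of the 8 genes (vertical axis) in each T30 replicate (left) and each OPT-tm replicate (right), with grey bars for the range of the 13 OPT18 prostates. In T30, replicate 1 is lowest for Ltf, Lcn2 and Wfdc15b and replicate 2 for Ctse, Wfdc2 and Pigr.

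The NE tumors themselves had little epithelial signal. All 14 general epithelium genes tested, among them Cdh1, Krt8 and Krt18, were lower in the NE tumors than in T30, and their summed signal was 14778 to 16665 in OPT-tm, 119362 to 139473 in T30 and 92680 to 140929 in OPT18. Krt8, a keratin of luminal cells, was 11.54 ± 0.24 (SD, n = 3) in OPT-tm and 15.09 ± 0.21 (n = 4) in T30, still detected on every array. Of 10 seminal vesicle genes 10 were lower than in T30, with sums of 2573 to 3990 in OPT-tm, and Svs1, Svs2, Svs3a and Svs3b were detected on 0 of 3 arrays. All 6 of 6 basal genes and 5 of 6 smooth muscle genes were lower than in T30 as well, while 4 of 10 luminal and 2 of 6 urothelial genes were. T30 was itself low for the luminal genes, with sums of 137369 to 232350 against 297736 to 337059 in OPT18. Against OPT18 7 of 10 luminal, 4 of 6 urothelial, 5 of 6 basal and 6 of 6 smooth muscle genes were lower. By the same rule (limma adjusted p under 0.05 and at least 2-fold), 12.5% of all genes were lower than in T30 and 13.6% lower than in OPT18. The transgene is driven by the rat probasin element, and by staining the study found high T antigen in anaplastic tumors of OPN-/-TRAMP mice. The mouse gene Pbsn was detected on 0 of 3 OPT-tm arrays, on 1 of 4 T30 arrays and on all 13 OPT18 arrays. The low signals of 6 of the 8 genes thus came with low signals of most epithelial markers, and the part of these in the result was not tested.

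**Figure D4:**
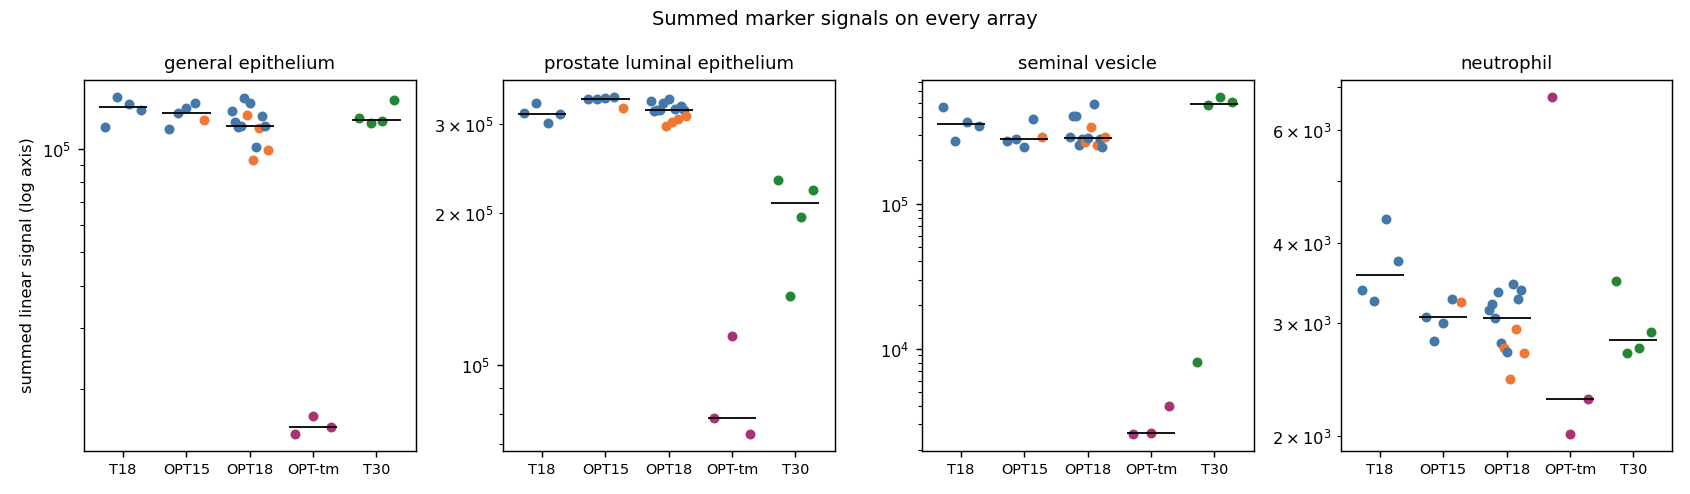
Summed linear signal of 4 marker lists on each array (vertical axis, log scale) by group (horizontal axis), with bars at group medians and colours as in the plot of single genes. General epithelium genes sum to 14778 to 16665 in the 3 OPT-tm arrays and to 119362 or more in T30, and seminal vesicle genes are low in 1 T30 array.

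Neutrophils store Ltf and Lcn2, so their markers were read beside them. Of 16 neutrophil genes listed, 7 were tested, and none of the 7 passed between OPT-tm and T30. Mpo, Elane, Camp and Ngp, which define neutrophil granules, were not detected on any array. The summed signal of the 7 genes was 2695 to 3490 in T30, 2452 to 3453 in OPT18 and 2013, 2283 and 6768.1 in OPT-tm. The high value was that of OPT-tm replicate 1, where S100a8 and S100a9 were detected (11.28 and 9.85), and in the other 2 NE tumors and in all 13 OPT18 prostates neither was detected. In T30 S100a8 was detected on 2 of 4 arrays and S100a9 on 0. Lcn2 was also highest in that replicate (9.91) among the NE tumors, whereas Ltf was not (7.82). This rests on 1 array, and the part of neutrophils in the signals of Ltf and Lcn2 was not tested. Macrophage genes summed to 21060 to 31893 in T30 and 12053 to 17618 in OPT-tm, and 2 of 9, Cd14 and Mrc1, were lower in OPT-tm.

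Other genes of mucosal defence were taken from 9 lists of relatives, partners and regulators, with 98 genes tested. A gene was called where limma gave a Benjamini-Hochberg adjusted p under 0.05 and the change was at least 2-fold. Of the 98 genes, OPT-tm had 30 below T30 and 4 above it, with a median of -0.58, where 12.5% and 11.5% of all genes were called lower and higher. In OPT-tm minus OPT18, 32 were lower and 4 higher, beside 13.6% and 12.3% of all genes. The 2 comparisons share the OPT-tm arrays. The lists were chosen with earlier results of these data known, so the counts are a description.

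Among secreted antimicrobial and mucosal proteins beside the 8 genes, 9 of 29 were lower in the NE tumors than in T30, and 0 were higher. Spink8, a gene of the Kazal family of protease inhibitors, was 9.05 ± 0.71 (SD, n = 3) in OPT-tm and 14.32 ± 0.98 (n = 4) in T30, a difference of -5.27 (SE 0.53, limma adjusted p = 0.000124). Ang and Rnase4, secreted ribonucleases that share a locus, differed by -3.96 (adjusted p = 0.00208) and -3.72 (adjusted p = 5.26e-05). Against OPT18 12 of the 29 were lower, with Spink8 at -5.24, Ang at -4.59 and Rnase4 at -3.87. The gap was thus of similar size against both groups for all 3 genes.

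Of the 10 other WAP genes tested, 3 were lower and 1 higher in OPT-tm than in T30. Wfdc18 was detected on 0 of 3 OPT-tm and on 3 of 4 T30 arrays and was at least 10.9-fold lower (adjusted p = 0.0279), with a wide SD of 2.86 in T30. Wfdc1 differed by -1.70 and Wfdc6b by -1.29, both past the threshold. Wfdc3 went the other way, at 11.51 ± 2.08 (n = 3) in OPT-tm and 9.04 ± 0.29 (n = 4) in T30 (difference 2.46, adjusted p = 0.0351). Against OPT18 4 of the 10 were lower and 0 higher, so the higher Wfdc3 was called against T30 and not against OPT18.

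Of 3 lysozyme genes, Lyz1 differed by -1.24 (13.26 ± 0.58 in OPT-tm and 14.50 ± 0.39 in T30, adjusted p = 0.0113). It was detected on all 3 OPT-tm arrays, where the neighbouring 9530003J23Rik was detected on 0, and none of the 3 passed against OPT18. In the lipocalin family 2 of 8 were lower than in T30, Apod (-3.07, adjusted p = 0.000987) and Obp2a (-2.29, adjusted p = 0.0418), and both were also lower than in OPT18 (-2.69 and -3.22). Among 4 aspartic proteases, only Bace2 was called against T30 (-2.71, adjusted p = 4.5e-05).

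Receptors and iron carriers moved both ways. Slc22a17, a receptor that has been described for lipocalin 2, was 11.32 ± 0.13 (n = 3) in OPT-tm and 9.36 ± 0.20 (n = 4) in T30, higher by 1.96 (adjusted p = 4.46e-05), and higher than in OPT18 by 1.92. Tfrc, the transferrin receptor, was higher than in T30 by 1.02 (adjusted p = 0.0265). Heph, an iron oxidase, and the metal transporters Slc39a8 and Slc11a2 were lower (-2.74, -2.20 and -1.40). Of the list named for IgA transport, 2 genes were tested, Fcgrt and Tnfsf13b. Fcgrt, the neonatal Fc receptor, which binds IgG and not IgA, was lower (-1.85), and Tnfsf13b was not called.

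Of 29 regulators of mucosal defence genes, 10 were lower and 1 was higher in OPT-tm than in T30. Elf5, an ETS factor of secretory epithelia, was detected on 0 of 3 OPT-tm arrays and was at least 9.43-fold lower than in T30 (adjusted p = 0.00614). Elf3, another epithelial ETS factor, differed by -2.38, and Il17re, a receptor chain for an epithelial interleukin of the IL-17 family, by -2.37. The 1 higher gene was Foxa2, a transcription factor detected on 3 of 3 OPT-tm and 0 of 4 T30 arrays, at least 3.14-fold higher (adjusted p = 4.33e-06). Against OPT18 9 of the 29 were lower and Foxa2 was again higher, by 2.52.

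**Figure D5:**
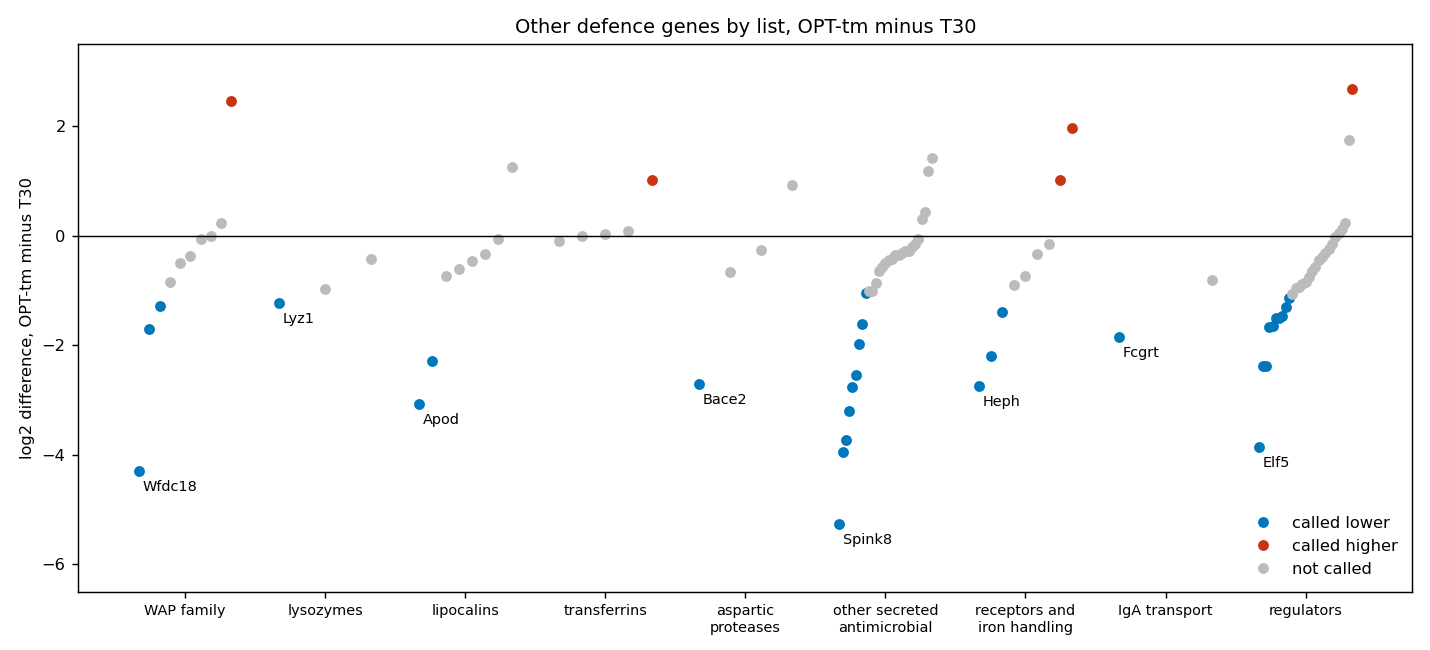
Differences OPT-tm minus T30 on the log2 scale (vertical axis) of the defence genes in each list (horizontal axis). Each point is a gene, blue where it was called lower, red where called higher and grey where not called, and the lowest gene of a list is named where it was called lower, such as Spink8 at -5.27.

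The genes beside the members were read for what they share in position. Wfdc15b, Slpi and Wfdc2 lie on chromosome 2 in a cluster that also holds seminal vesicle genes. Beside Wfdc15b, Svs2 (-6.06, adjusted p = 0.0199), Svs3b (-6.00, adjusted p = 0.0279) and Svs4 (-6.26, adjusted p = 0.00708) were lower in OPT-tm than in T30, whereas Wfdc12 was not called (-0.84, adjusted p = 0.154). Beside Slpi, Svs3a, Svs6 and Svs5 were lower (-5.29, -4.55 and -5.60). Matn4, a matrix gene on its other side, was lower as well (-2.21, adjusted p = 0.00133). Beside Wfdc2, Pigt was lower (-1.02, adjusted p = 0.00358), and Wfdc6a and Eppin differed by less than 2-fold (-0.49 and -0.37). Outside this cluster the tested neighbours went both ways. Beside Lcn2, 1110008P14Rik was lower (-1.12, adjusted p = 0.0388) and Slc25a25 higher (1.09, adjusted p = 0.000425), while Ciz1 and Ptges2 gave -0.003 and 0.10. Rab7b beside Ctse was lower (-1.30, adjusted p = 0.00112). Beside 9530003J23Rik, Lyz1 was lower as given above, and Lyz2, Cpsf6 and Yeats4 gave -0.97, 0.73 and 0.31, under 2-fold. Ccrl2 beside Ltf gave -0.84 and Fcmr beside Pigr 0.03.

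Among the tumor-free prostates the genes did not separate the Early-NE from the Early-ADC class. The 5 Early-NE and 17 Early-ADC prostates overlapped for all 8 of 8 genes. Most genes on the arrays did so, with 2.55% higher and 0.371% lower with no overlap, and nothing is read from the count. Differences of the 8 genes ran from -0.65 (Lcn2) to 0.18 (Pigr), with a median of -0.05, beside -0.04 over all genes. 9530003J23Rik was 15.10 ± 0.15 (SD, n = 5) in Early-NE and 15.11 ± 0.41 (n = 17) in Early-ADC. The classes were drawn from these arrays, so no test is given. Over all genes 1.92% were called higher and 0% lower in Early-NE, and none of the 98 defence genes was called in either direction. The neuroendocrine markers differed between the same classes, with sums of 12123 to 41329 in Early-NE and 2961.9 to 8689 in Early-ADC. The study drew the classes by clustering on genes that differed between its NE tumors and adenocarcinomas, among them Ddc and Syp. Both are in this marker list, so the clustering itself used them and nothing is read from the difference.

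Early-NE held 1 younger prostate, OPT15 replicate 5, which was high for Ltf. Among the 4 Early-NE prostates of OPT18, Ltf gave 9.70, 9.54, 9.73 and 9.52, where the 9 Early-ADC prostates of OPT18 ran from 9.63 to 11.55. Lcn2 gave 12.50, 12.41, 11.94 and 11.69 in the same 4, where the 9 ran from 12.47 to 13.66. The values overlapped at the low end of OPT18. The 4 Early-NE prostates lay on chips 2 and 4, and 4 of the 9 Early-ADC prostates on chip 1. On chip 2 the OPT18 Early-ADC prostates gave 9.63 and 9.68 for Ltf, level with the 9.70 and 9.54 of Early-NE there. On chip 4 they gave 10.59 and 10.11, above the 9.73 and 9.52 of Early-NE. For Lcn2 the OPT18 Early-ADC prostates gave 12.47 and 12.82 on chip 2, beside 12.50 and 12.41 in Early-NE. On chip 4 they gave 12.48 and 12.93, above the 11.94 and 11.69 of Early-NE. Over all tumor-free groups, Early-NE minus Early-ADC within chips 2 and 4 was -0.29 and -0.03 for Ltf and -0.49 and -0.46 for Lcn2. The chip 4 values include OPT15 replicate 5, which was at 11.71 for Ltf. The part of the chip was not tested. The differences within OPT18 were -0.78 for Ltf, -0.82 for Lcn2 and -0.41 for Wfdc15b, and those of the other 5 genes lay between -0.28 and -0.05.

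The course from early disease to adenocarcinoma in TRAMP mice was read from T30 minus T18. Ltf was higher in T30 by 3.22 (9.30-fold), with all 4 T30 arrays above the highest T18 array, and without T30 replicate 1 the difference was 4.05. Ltf was the 1 gene of the 8 with no overlap here, where 5.26% of all genes were higher with no overlap. Because the T30 arrays were used to choose the genes, nothing is read from this count. Within the 4 chips, each with 1 array of either group, the Ltf difference was 1.02, 4.81, 3.61 and 3.42. Lcn2 was higher by 1.76 and Ctse by 2.13, each with 3 of 4 T30 arrays above the highest T18 array. Within chips 1 to 4 Lcn2 differed by 0.31, 2.51, 2.06 and 2.16 and Ctse by 3.57, -0.99, 2.73 and 3.20, so Ctse turned on chip 2. Without T30 replicate 1 the Lcn2 difference was 2.44, and without T30 replicate 2 that of Ctse was 2.96.

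The other 5 genes differed less between T18 and T30. Wfdc15b differed by 0.59, 9530003J23Rik by 0.75 and Slpi by 0.36, while Wfdc2 (-0.43) and Pigr (-1.24) were lower on average. The last values rest on T30 replicate 2, since without it Wfdc2 gave 0.28 and Pigr -0.47. The choice of the genes used the T30 arrays, so these differences have no test. Over all genes limma called 0.241% higher and 1.24% lower in T30. Of the 98 defence genes, 4 were called lower and 0 higher, Wfdc3 (-1.82, adjusted p = 0.000823), Defb2 (-1.74, adjusted p = 0.0484), Wfdc10 (-1.47, adjusted p = 0.0195) and Wfdc6b (-1.41, adjusted p = 0.0359).

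Loss of osteopontin was compared at 18 wks of age in prostates without a detectable tumor mass, and these differences could be tested. OPT18 minus T18 lay between -0.45 (Wfdc15b) and 0.31 (9530003J23Rik), and 0 of 8 genes passed limma's test, with 0 at an unadjusted p under 0.05 and a smallest adjusted p of 0.791. The 95% intervals of the 8 genes reached at most 1.09 from 0 (Wfdc15b, -1.09 to 0.20). Over all genes 0.00929% were called higher and 0.0186% lower. 

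OPT18 minus OPT15, the step from 15 to 18 wks in OPN-/-TRAMP mice, also gave 0 of 8 called, and 0% of all genes were called in either direction. Slpi had the smallest p, with a difference of 0.48 (SE 0.21, 95% interval 0.04 to 0.93, limma p = 0.0344, adjusted p = 0.206). It was not detected on 3 of 5 OPT15 arrays, all on chips 3 and 4. The other 7 differences lay between -0.36 and 0.22, and the intervals of the 8 genes reached at most 1.05 from 0. 1 of 8 genes had an unadjusted p under 0.05.

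Over the 17 Early-ADC prostates the genes varied together only in part. These pooled T18, OPT15 and OPT18 prostates, so genotype and age differed among them and were not held fixed in the permutations. Of 28 pairs 22 had a positive Pearson r, with a median of 0.22 and a range of -0.42 to 0.69, each with a two-sided permutation test. Ltf and Wfdc15b had r = 0.69 (permutation p = 0.00201, adjusted p = 0.0433) and Spearman's rho = 0.65 (permutation p = 0.00633, adjusted p = 0.0886). Ltf and Wfdc2 had r = 0.67 (permutation p = 0.00309, adjusted p = 0.0433) and rho = 0.71 (permutation p = 0.00171, adjusted p = 0.0479). Without the 2 arrays farthest from the median of Ltf, r was 0.48 and 0.71, and with each chip's mean removed 0.70 and 0.76. No pair passed after adjustment in either setting (adjusted permutation p = 0.482 and 0.0876 without the 2 arrays, 0.1 and 0.0955 with permutation within chips).

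Over all 29 arrays the genes most like each member were listed as a description, since the arrays share group differences. For 9530003J23Rik these were Sgk1 (r = 0.98), Gstm2 (0.98) and Pkp2 (0.97). For Wfdc15b they were Cwh43 and Cd52 (0.97 each) and Ces1d (0.95), and for Lcn2 Bnipl, Fxyd4 and Cwh43 (0.94, 0.94 and 0.93). Ltf was most like B3gnt8 (0.92), Defb6 (0.92) and Cxcl16 (0.91), and Ctse most like Itih2 (0.95), Slc39a4 (0.94) and Car13 (0.92). Pigr was most like Treh (0.95), Timp4 (0.92) and Apof (0.92). Wfdc2 and Slpi had weaker partners, Ripply3, Dbi and Tpbg (0.79 each) and Anxa8 (0.83), Ikbip (0.81) and 1700123O20Rik (0.79).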

How the data were processed

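RNA of 29 mouse prostates was measured on single-colour Illumina MouseRef-8 arrays, 1 array a prostate, on 4 chips. The deposited table, exported by the authors with BeadStudio, gives 25697 probes with their signal intensity and the p-value of detection, not normalized. The authors also deposited normalized log2 values, made with lumi by robust spline normalization, which were used only as an alternative. The genome build was not given in the sources used here.

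Signals were taken to log2 without background correction and quantile normalized with limma 3.58.1 (R 4.3.3). Of the probes 23978 had 1 gene symbol and 1719 none, and these were left unnamed. Probes with a detection p under 0.01 on at least 1 array were kept (15825), and each of 10768 genes was read by its most often detected probe. Each comparison was fitted with limma on its own groups, and genes that changed at least 2-fold with an adjusted p (Benjamini-Hochberg) under 0.05 were called. The fit was tested on simulated data. Correlations used 100000 permutations. The labels do not say more of the replicates than 1 prostate each. Arrays have no read depth, and their number limits the precision.

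The 8 genes and all gene lists were chosen with earlier results of these data known. Of 279 listed genes 172 were tested. Genes named in the text were the 8, up to 3 called rises and falls per list, the leading markers of a list, the 3 genes most like each of the 8, and up to 3 neighbours on either side in RefSeq gene order (GRCm38.p6). A few further list members were named after their values were seen.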

Additional observations from a re-analysis of the deposited data

Results flagged for a closer look

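Of 40 groups examined, 1 had a single array far from the others. Ltf in the Early-NE class was 11.71 in OPT15 replicate 5, and the nearest of the other 4 prostates was at 9.73 (a gap of 0.902 of the whole range, n = 5). The threshold used flags about 1 in 20 groups by chance. This prostate was the only one of the class from mice 15 wks old, and without it the difference Early-NE minus Early-ADC for Ltf was -0.71 in place of -0.29.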

How the results depend on the processing

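Every difference between the NE tumors and T30 or OPT18 kept its direction for the 8 genes, in 131 of 131 and 107 of 107 values under the alternatives run. The median of the 8 genes in OPT-tm minus T30 was -7.03 with neqc background correction, -3.55 with the other Ltf probe (detected on no array) and -5.02 with the other Wfdc15b probe, and in OPT-tm minus OPT18 it was -4.17 with neqc. The size of a fold at background therefore rests on the background correction and the probe. Leaving out 1 replicate gave medians of -5.89 to -5.22 and of -2.97 to -2.69. The defence genes called higher in OPT-tm than in T30 numbered 2 to 3 without 1 replicate (4 with all), and those called lower 26 to 35. With chip as a block the medians were -5.43 and -3.05. The number of correlated pairs fell from 2 to 0 without the 2 farthest arrays and to 0 with chip-centred values. No member was called in OPT18 minus T18 or OPT18 minus OPT15 under any alternative, with smallest adjusted limma p values of 0.368 and 0.119. For Early-NE minus Early-ADC 111 of 123 and for T30 minus T18 137 of 139 values kept their sign. No paired analysis was possible because the labels give no replicate numbers shared between groups, and the chip was used as the block in their place. Signals near background limit Ltf, Ctse, 9530003J23Rik and Slpi in the NE tumors to a bound, and Wfdc15b was at background on 2 and Lcn2 on 1 of the 3 arrays.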
